A study of Homo sapiens with 8 samples.

Results

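Ephrins and their Eph receptors were followed while the established human embryonic stem cell line H9 was driven toward blood and passed through a stage that carries the surface proteins of vessel cells. The group described here holds 10 genes. They are the ephrin-B ligands EFNB2 and EFNB1, the ephrin-A ligands EFNA1 and EFNA5, the EphB receptors EPHB4, EPHB2 and EPHB3, and the EphA receptors EPHA1, EPHA2 and EPHA4. Members were found as the array probe sets, groups of short oligonucleotides that read RNA, whose annotation names exactly 1 of these symbols. That gave 21 probe sets for 9 of the 10 genes, out of 41091 probe sets with 1 symbol for 19775 genes. EPHB2 was not analysed here.

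RNA was measured on 8 arrays, 2 for each of 4 groups. At day 0 the H9 cells were undifferentiated and unsorted. At day 4, day 6 and day 8 of culture in serum-free medium with BMP-4, cells with both KDR, a VEGF receptor, and CD31, an adhesion molecule of endothelium, on their surface were isolated by flow sorting. All groups came from the same line, kept on feeder layers of mouse fibroblasts, with no genetic change named in the labels. Day and sorting changed together between day 0 and every later group and cannot be told apart. The labels call the 2 arrays of a group biological replicates but do not say whether they came from separate cultures, so p-values measure only the spread between these arrays. Levels are given as log2(intensity + 32), called log2 level here. A change is a difference of log2 levels, and a fold is 2 raised to that change, which understates the change of dim genes.

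Ephrins are ligands held on the cell surface, ephrin-A by a lipid anchor and ephrin-B by a membrane-spanning stretch with its own cytoplasmic tail. Eph receptors are receptor tyrosine kinases that bind them on a touching cell, and signals then run into both cells. In the embryo's vessels, ephrin-B2 marks arteries and its receptor EphB4 marks veins, and mice that lack either gene fail to remodel their first vascular network.

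The sorted arrays carried markers of endothelium, read from a list that held neither KDR nor the gene of CD31. Over 9 endothelial markers such as CDH5, TIE1 and ERG, the mean log2 level lay between 10.47 and 11.47 on the 6 sorted arrays, with 0 of the 9 below the array median, and was 6.67 and 6.57 at day 0, with 6 and 7 of the 9 below it. Over 7 markers of undifferentiated cells such as NANOG, the mean ran from 7.75 to 8.27 on the sorted arrays, against 12.30 and 12.25 at day 0. Replicate 1 of day 4 and of day 6 stood apart from its partner. The correlation between the 2 arrays of a day over the genes tested was 0.997 (day 0), 0.953 (day 4), 0.937 (day 6) and 0.980 (day 8). On these 2 arrays the 8 yolk sac endoderm markers averaged 8.21 at day 4 and 6.94 at day 6, while the other array read 10.27 at day 4 and 9.01 at day 6. The 9 smooth muscle and stroma markers ran the opposite way, at 9.60 and 9.63 on replicate 1 of day 4 and day 6, and 8.50 and 8.30 on replicate 2. The ACTB ratio of 3′ to 5′ signal climbs as RNA is shortened. It was 19 and 31 on replicate 1 of day 4 and day 6, and 9.18 and 16 on replicate 2. At day 0 it was 8.92 and 10.4, and at day 8 it was 9.91 and 15.1. The GAPDH ratio was 1.71 and 1.91 at day 0 and ran from 2.15 to 3.73 on the sorted arrays. It thus differed between day 0 and every later group along with day and sorting, and its part in the changes was not tested. Markers of other cells the gate or the culture could hold were read the same way. The 7 epithelial markers averaged 8.32 to 9.22 on the sorted arrays, against 11.75 and 11.67 at day 0, the 6 ectoderm markers 6.55 to 7.79, against 9.43 and 9.39, and the 6 blood markers 7.02 to 8.87, against 6.98 and 6.90. The epithelial, ectoderm, blood, stroma and endoderm lists moved between day 0 and the sorted days along with the members described next. The part of these lists in each change was not tested. Where leaving out the 2 arrays that stood apart changed a call of a member, the change without them is given. That fit holds 1 array for day 4 and 1 for day 6. Its spread comes from the day 0 and day 8 arrays alone, so its adjusted p is not given.

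The 250 bases before the transcription start are shown for the 5 members whose change from day 0 passed the test at day 6 and day 8 on the probe set used, 3 that were higher (EFNB2, EFNA1, EPHB4) and 2 that were lower (EFNA5, EPHA1). They come from RefSeq on GRCh38.p14, in which all 10 members had an entry, and are written 5′ to 3′ on the gene's own strand. Capitals mark each match, on either strand, to any of 8 motifs.
EFNB2 (chr13:106535663-106535912, minus strand): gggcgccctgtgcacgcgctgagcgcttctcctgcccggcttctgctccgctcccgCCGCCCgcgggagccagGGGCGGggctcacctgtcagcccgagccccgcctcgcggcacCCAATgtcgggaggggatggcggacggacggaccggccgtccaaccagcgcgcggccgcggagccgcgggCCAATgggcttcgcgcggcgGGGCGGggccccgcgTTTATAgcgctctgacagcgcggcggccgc
EFNA1 (chr1:155127626-155127875, plus strand): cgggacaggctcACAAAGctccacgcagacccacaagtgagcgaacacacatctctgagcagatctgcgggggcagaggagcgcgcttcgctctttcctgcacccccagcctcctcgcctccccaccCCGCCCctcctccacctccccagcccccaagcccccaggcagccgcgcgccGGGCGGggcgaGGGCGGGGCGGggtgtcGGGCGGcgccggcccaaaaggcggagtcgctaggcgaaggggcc
EPHB4 (chr7:100827524-100827773, minus strand): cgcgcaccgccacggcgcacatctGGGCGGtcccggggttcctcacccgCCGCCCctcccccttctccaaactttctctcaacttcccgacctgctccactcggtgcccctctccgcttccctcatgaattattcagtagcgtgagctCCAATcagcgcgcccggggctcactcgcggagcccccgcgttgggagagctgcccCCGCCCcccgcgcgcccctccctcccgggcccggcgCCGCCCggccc
EFNA5 (chr5:107670938-107671187, minus strand): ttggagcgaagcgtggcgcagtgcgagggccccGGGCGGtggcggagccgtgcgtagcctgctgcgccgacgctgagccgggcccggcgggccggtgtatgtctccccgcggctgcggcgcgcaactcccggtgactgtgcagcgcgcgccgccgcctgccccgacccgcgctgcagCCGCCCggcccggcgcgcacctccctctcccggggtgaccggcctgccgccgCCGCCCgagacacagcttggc
EPHA1 (chr7:143408857-143409106, minus strand): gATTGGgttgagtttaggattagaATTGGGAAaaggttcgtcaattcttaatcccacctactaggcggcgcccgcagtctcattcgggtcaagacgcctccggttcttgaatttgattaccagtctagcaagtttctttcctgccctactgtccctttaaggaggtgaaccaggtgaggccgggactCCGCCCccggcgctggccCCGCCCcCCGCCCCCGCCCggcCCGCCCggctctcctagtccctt
The motifs searched were the GC box GGGCGG, the CCAAT box CCAAT, the TATA box TATAAA, an ETS core CCGGAA, an RBPJ match TGGGAA, the GATA match AGATAA, the SOX match ACAAAG and the E-box CACGTG, each also as its reverse complement. Matches may overlap, as in the pair of GC boxes in EFNA1 and the CCAAT box and RBPJ match in EPHA1. GC boxes stood in all 5 windows, 3 in EFNB2, 5 in EFNA1, 4 in EPHB4, 3 in EFNA5 and 5 in EPHA1, and in 42.6% of 35116 promoters of the same length. EFNB2 had 2 CCAAT boxes and 1 TATA box, motifs found in 32% and 10.7% of all promoters. EPHB4 had 1 CCAAT box, EPHA1 had 2 and 1 RBPJ match (20.8% of all promoters), and EFNA1 had 1 SOX match (13.7% of all promoters). The ETS core, the GATA match and the E-box, found in 14.5%, 9.17% and 6.34% of all promoters, had 0 matches in these 5 windows. The GC content was 78.4% in EFNB2, 73.2% in EFNA1, 72.8% in EPHB4, 79.6% in EFNA5 and 59.2% in EPHA1, beside a median of 58% over all promoters. The higher and the lower members therefore shared the GC box, and a match is a description of letters, not of a bound factor.

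EFNB2 encodes ephrin-B2, the arterial ligand. Its log2 level (probe set 202668_at) was 10.89 and 10.95 (day 0), 12.15 and 13.84 (day 4), 12.45 and 14.11 (day 6) and 13.69 and 13.93 (day 8). All 6 sorted arrays were above both day 0 arrays, and replicate 1 of day 4 and of day 6 lay well below the other 4 sorted arrays. In bulk RNA, fewer cells expressing a gene and less RNA per cell cannot be told apart. In limma, fitted over all genes with Benjamini-Hochberg adjustment, EFNB2 rose 7.42-fold at day 8 over day 0 (2.89 ± 0.65 SE on the log2 scale, adjusted p = 0.0201) and 5.14-fold at day 6 (2.36 ± 0.65, adjusted p = 0.0418). At day 4 the change was 2.07 ± 0.65 with an adjusted p of 0.0744, and the call was not made. Replicate 1 of day 4 and of day 6 was left out in an alternative added after the data were seen. The changes were then 2.92 at day 4 and 3.19 at day 6, each resting on 1 array of that day, and 2.89 at day 8. Without replicate 2 instead, the change was 1.23 at day 4 (replicate 2 of day 4 left out) and 1.53 at day 6 (replicate 2 of day 6 left out). The day 8 call was lost without any 1 of the day 0 or day 8 arrays, and it held with only the arrays compared (adjusted p = 8.09e-05). The day 6 call was lost without any 1 of the day 0 or day 8 arrays and without replicate 2 of day 6. It was also lost with quantile normalization (adjusted p = 0.0512) and with only the arrays compared (adjusted p = 0.0611). The day 8 call held in 13 of 18 alternatives and the day 6 call in 10 of 18.

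The other EFNB2 probe set, 202669_s_at, split the arrays of a day much further. It read 8.84 and 8.81 (day 0), 8.93 and 12.75 (day 4), 9.56 and 13.16 (day 6) and 12.58 and 13.05 (day 8). Replicate 1 of day 4 was thus at the day 0 level on this probe set, while 202668_at of the same array was already above it. The first probe set exceeded the other by 2.06 and 2.14 (day 0), 3.22 and 1.09 (day 4), 2.90 and 0.96 (day 6) and 1.11 and 0.88 (day 8), so their distance was widest on the 2 arrays that stood apart. Tested among all probe sets, 202669_s_at changed by 3.99 ± 1.44 at day 8 (adjusted p = 0.0976), by 2.53 ± 1.44 at day 6 (adjusted p = 0.279) and by 2.01 ± 1.44 at day 4 (adjusted p = 0.421), and none was called. Without those 2 arrays its changes were 3.92, 4.33 and 3.99 at day 4, day 6 and day 8, with 1 array left on day 4 and on day 6. The day 8 change was called in 6 of 17 alternatives, among them the fit on only the arrays compared. The mean of both probe sets gave 3.44 at day 8 (adjusted p = 0.0535) and 2.45 at day 6 (adjusted p = 0.145), which also ended those calls.

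**Figure D1:**
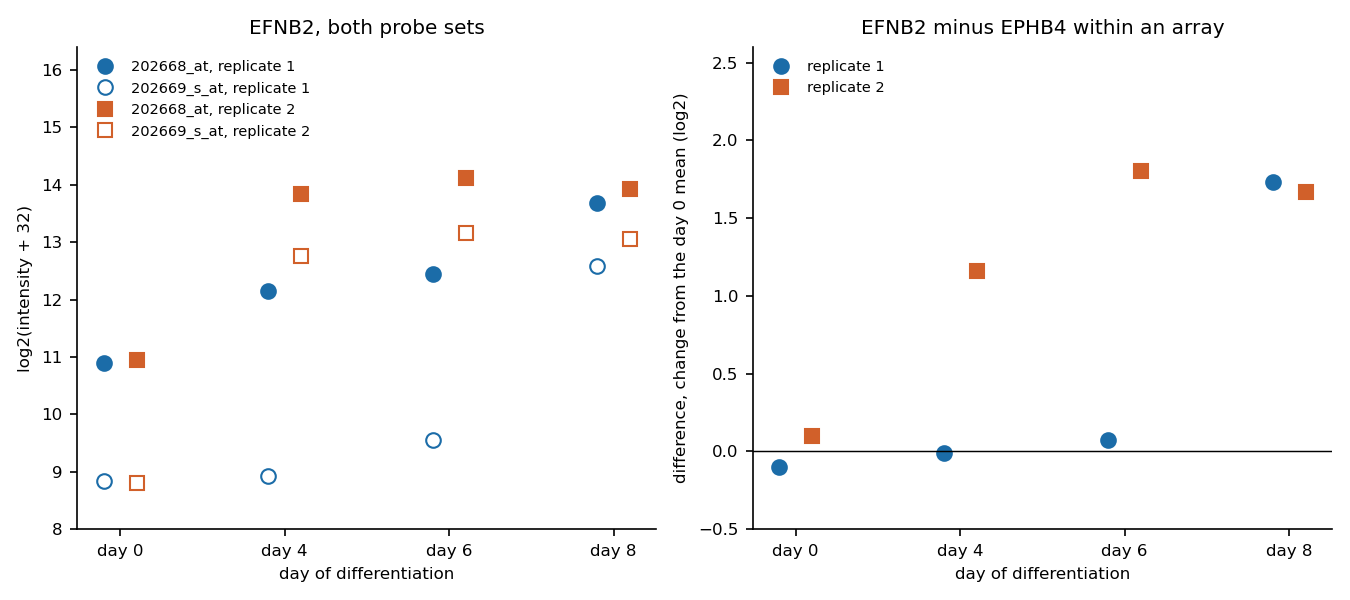
EFNB2 across the days of differentiation: left, the log2 level of both probe sets on each of 8 arrays (filled symbols 202668_at, open symbols 202669_s_at, circles replicate 1, squares replicate 2). Right, EFNB2 (202668_at) minus EPHB4 (202894_at) within each array as a change from the day 0 mean. On 202669_s_at replicate 1 of day 4 reads 8.93, beside 8.84 and 8.81 at day 0, and replicate 2 of day 4 reads 12.75.

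EFNB1, the X-linked ephrin-B gene that is mutated in craniofrontonasal syndrome, moved little. Its 1 probe set read 6.98 and 7.07 (day 0), 7.68 and 7.42 (day 4), 7.29 and 7.19 (day 6) and 7.34 and 7.31 (day 8). Every sorted array lay above both day 0 arrays, by less than 1 log2 unit. It rose 1.44-fold at day 4 over day 0 (0.52 ± 0.13, limma adjusted p = 0.0301), and the changes of 0.21 at day 6 (adjusted p = 0.282) and 0.30 at day 8 (adjusted p = 0.131) were not called. In a limma fit on only the arrays compared, the change at day 8 passed the test (0.30, adjusted p = 0.0377). The day 4 call was lost under 7 of 17 alternatives, among them without either day 0 array, replicate 1 of day 4 or either day 8 array, with an adjusted p of up to 0.215.

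EFNA1, an ephrin-A ligand first found as a gene that tumour necrosis factor induces in endothelial cells, showed the largest change among the probe sets used for the 9 members tested. It read 8.73 and 8.59 (day 0), 11.40 and 11.98 (day 4), 10.52 and 12.54 (day 6) and 12.02 and 12.26 (day 8). The 2 groups of arrays did not overlap on any day, and replicate 1 of day 6 was the lowest sorted array. EFNA1 rose 8.17-fold at day 4 (3.03 ± 0.59, limma adjusted p = 0.0135), 7.3-fold at day 6 (2.87 ± 0.59, adjusted p = 0.0144) and 11.2-fold at day 8 (3.48 ± 0.59, adjusted p = 0.00669). Without the 2 arrays that stood apart the changes were 3.32, 3.87 and 3.48, and without replicate 2 of day 6 the day 6 change was 1.86. Leaving out replicate 2 of day 0 ended the call on each day, as did replicate 1 of day 0 at day 4 and day 6, replicate 2 of day 4 at day 4 and replicate 2 of day 8 at day 8, and a fit on only the arrays compared ended the day 6 call, with adjusted p of up to 0.093.

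EFNA5, a lipid-anchored ligand known for repelling growing axons, fell. Its probe set of highest mean, 214036_at, read 8.96 and 8.94 (day 0), 7.42 and 7.53 (day 4), 7.50 and 7.59 (day 6) and 7.97 and 7.55 (day 8). All sorted arrays were below both day 0 arrays, and replicate 1 of day 8 was the highest of them. The change was -1.47 ± 0.17 at day 4 (limma adjusted p = 0.0015), -1.40 ± 0.17 at day 6 (adjusted p = 0.00158) and -1.19 ± 0.17 at day 8 (adjusted p = 0.00329), or 2.77-, 2.64- and 2.28-fold lower. These calls held in all 18 alternatives on each day.

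The further EFNA5 probe sets gave larger falls. Probe set 227955_s_at read 9.14 and 9.02 (day 0), 6.19 and 6.41 (day 4), 6.63 and 6.34 (day 6) and 7.17 and 6.42 (day 8). Probe set 233814_at read 9.67 and 9.88 (day 0), 6.92 and 6.95 (day 4), 6.85 and 6.84 (day 6) and 8.19 and 6.98 (day 8). On both, replicate 1 of day 8 sat above the other 5 sorted arrays while remaining below day 0. At day 4 they were 6.86-fold lower (-2.78 ± 0.25, adjusted p = 0.000671 among all probe sets) and 7.19-fold lower (-2.85 ± 0.35, adjusted p = 0.00265), and both were also called lower at day 6 and day 8, where 233814_at lost its day 8 call without replicate 2 of day 0 (adjusted p = 0.0591). The remaining probe set, 207301_at, read between 6.21 and 6.56 on all 8 arrays, below the array median on each, and was not tested.

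**Figure D2:**
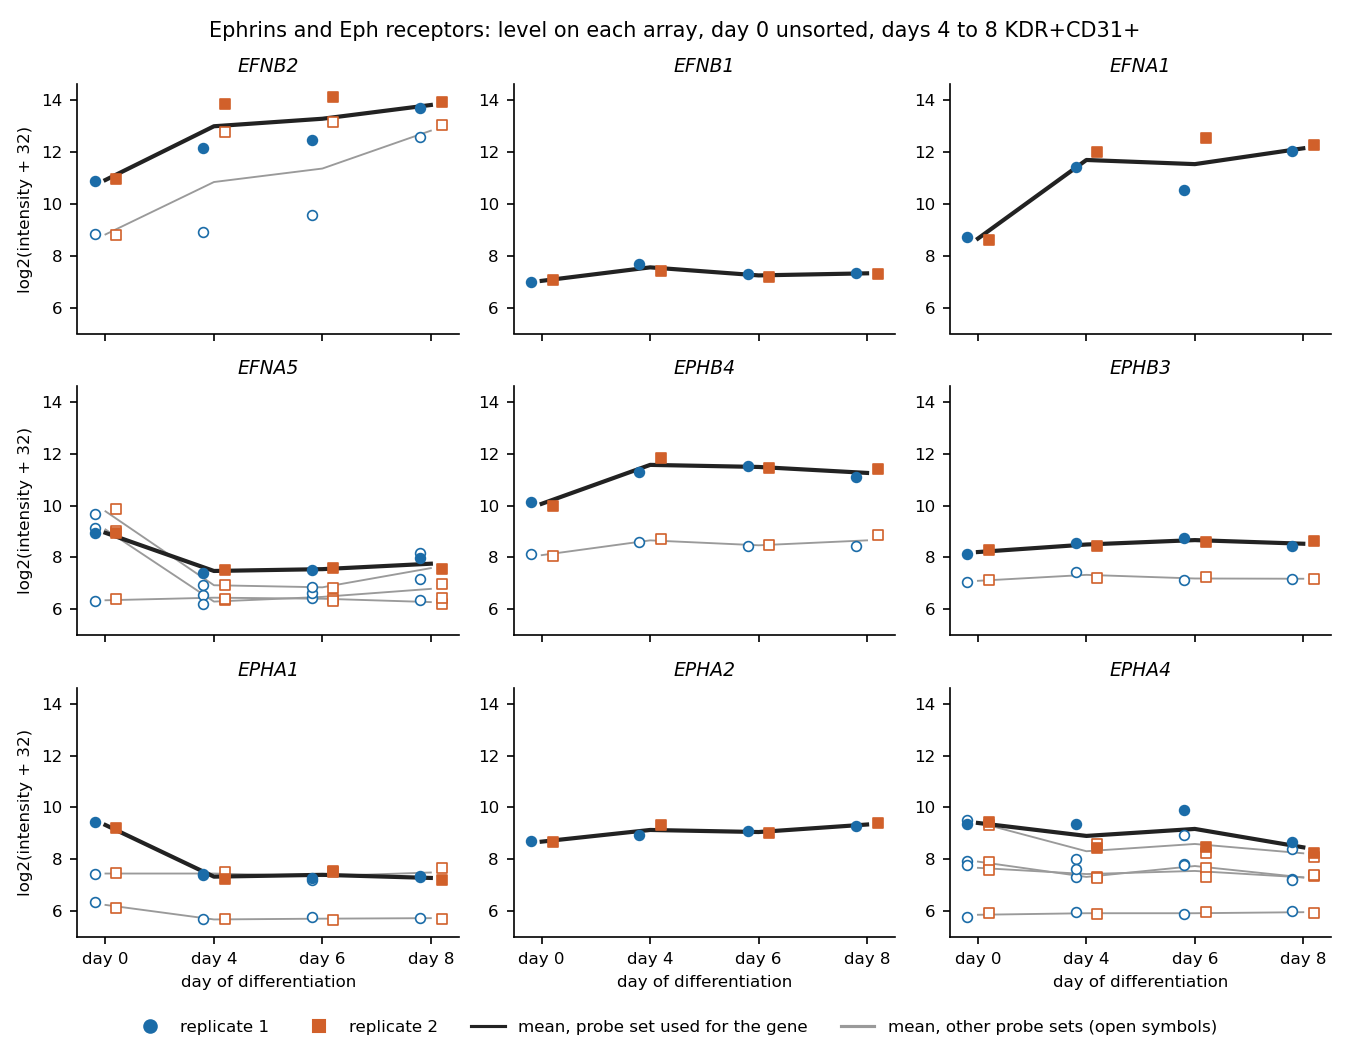
Log2 level, log2(intensity + 32), of the 9 members with a probe set on each array at day 0, 4, 6 and 8; filled symbols and the black line of means show the probe set used for the gene, open symbols and grey lines the further probe sets, circles replicate 1 and squares replicate 2. EFNB2, EFNA1 and EPHB4 sit higher on the sorted days than at day 0, EFNA5 (3 of 4 probe sets) and EPHA1 (205977_s_at) sit lower, and EFNB2 and EFNA1 have the widest gaps between the 2 arrays of a day among the filled symbols.

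EPHB4, the receptor that binds ephrin-B2 and marks venous endothelium, rose on each sorted day. Probe set 202894_at read 10.14 and 9.99 (day 0), 11.31 and 11.83 (day 4), 11.53 and 11.46 (day 6) and 11.11 and 11.41 (day 8). The sorted arrays did not overlap with day 0, and the replicate 1 arrays of day 4 and day 6 were not set off from the rest. The rise was 2.83-fold at day 4 (1.50 ± 0.22, limma adjusted p = 0.00461), 2.69-fold at day 6 (1.43 ± 0.22, adjusted p = 0.00498) and 2.28-fold at day 8 (1.19 ± 0.22, adjusted p = 0.0101). Leaving out replicate 2 of day 0 ended the call on each day, and at day 8 so did replicate 1 of day 0 and replicate 2 of day 8, with an adjusted p of up to 0.0934. The other probe set, 216680_s_at, read 8.12 and 8.07 (day 0), 8.60 and 8.72 (day 4), 8.45 and 8.49 (day 6) and 8.44 and 8.87 (day 8). It lay in the same direction with smaller changes, 0.57 ± 0.18 at day 4 (adjusted p = 0.0905), 0.37 ± 0.18 at day 6 (adjusted p = 0.214) and 0.56 ± 0.18 at day 8 (adjusted p = 0.0749), and was not called. Its day 8 change of 0.56 was called in a fit on only the arrays compared.

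EPHB3, known in mice for placing cells along the intestinal crypt, was not called on any day. Probe set 204600_at read 8.14 and 8.27 (day 0), 8.55 and 8.45 (day 4), 8.75 and 8.58 (day 6) and 8.43 and 8.63 (day 8). The sorted arrays were above day 0 by small steps, with changes of 0.29 ± 0.16 at day 4 (limma adjusted p = 0.268), 0.46 ± 0.16 at day 6 (adjusted p = 0.083) and 0.33 ± 0.16 at day 8 (adjusted p = 0.182). Probe set 1438_at ranged from 7.06 to 7.45 over the 8 arrays and was not called either.

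EPHA1, the founding member of the receptor family, fell on its main probe set. Probe set 205977_s_at read 9.45 and 9.20 (day 0), 7.41 and 7.24 (day 4), 7.28 and 7.53 (day 6) and 7.34 and 7.22 (day 8). The 6 sorted arrays formed a tight band below day 0. EPHA1 was 3.98-fold lower at day 4 (-1.99 ± 0.16, limma adjusted p = 0.000313), 3.78-fold lower at day 6 (-1.92 ± 0.16, adjusted p = 0.000339) and 4.12-fold lower at day 8 (-2.04 ± 0.16, adjusted p = 0.000259). The calls held in all 18 alternatives on each day, with changes from -2.29 to -0.84, the smallest with the mean of all probe sets. The other tested probe set, 215804_at, ranged from 7.21 to 7.65 over the 8 arrays, with a change of 0.00 ± 0.16 at day 4 and 0.04 ± 0.16 at day 8, and did not carry the fall. Probe set 241482_at was below the array median on every array, at 5.64 to 5.77 on the sorted arrays, against 6.35 and 6.12 at day 0, and was not tested.

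EPHA2, a receptor for ephrin-A1 that is known from tumour vessels, read 8.70 and 8.67 (day 0), 8.92 and 9.34 (day 4), 9.10 and 9.01 (day 6) and 9.30 and 9.39 (day 8). All sorted arrays were above day 0, by less than 1 log2 unit. It rose 1.58-fold at day 8 (0.66 ± 0.19, limma adjusted p = 0.0463), and the changes of 0.45 ± 0.19 at day 4 (adjusted p = 0.164) and 0.37 ± 0.19 at day 6 (adjusted p = 0.22) were not called. Without the 2 arrays that stood apart the day 4 change was 0.66, resting on 1 array of that day. The day 8 call stood close to the threshold. It was lost without a filter on dim genes and without any 1 of the day 0 and day 8 arrays, with an adjusted p of up to 0.233, and read 0.0541 when all probe sets were tested.

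EPHA4, a receptor that takes ligands of both ephrin classes, depended on the probe set and, at day 4 and day 6, on the arrays that stood apart. The probe set of highest mean, 227449_at, read 9.37 and 9.43 (day 0), 9.37 and 8.43 (day 4), 9.89 and 8.46 (day 6) and 8.68 and 8.24 (day 8). Replicate 1 of day 4 was at the day 0 level and replicate 1 of day 6 above it, while the other 4 sorted arrays were lower. Its changes of -0.50 ± 0.50 at day 4 (limma adjusted p = 0.555), -0.23 ± 0.50 at day 6 (adjusted p = 0.793) and -0.94 ± 0.50 at day 8 (adjusted p = 0.216) were not called. Without replicate 1 of day 4 and of day 6 they were -0.97, -0.94 and -0.94. The size of the day 8 change does not use these 2 arrays, which enter only its pooled spread. It was called lower in 3 of 18 alternatives. Among them were the limma fit on only the arrays compared (-0.94, adjusted p = 0.00812) and that on the mean of all probe sets (-0.60, adjusted p = 0.0482).

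Of the further EPHA4 probe sets, 206114_at read 9.52 and 9.33 (day 0), 8.02 and 8.59 (day 4), 8.94 and 8.25 (day 6) and 8.40 and 8.07 (day 8). All 6 sorted arrays were below both day 0 arrays there, and the test called it lower at day 4 (-1.12 ± 0.30, adjusted p = 0.0491 among all probe sets) and at day 8 (-1.19 ± 0.30, adjusted p = 0.0331). Probe set 228948_at, at 7.94 and 7.89 (day 0), 7.32 and 7.32 (day 4), 7.80 and 7.67 (day 6) and 7.24 and 7.35 (day 8), was also called lower at day 4 (-0.59 ± 0.12, adjusted p = 0.019) and day 8 (-0.62 ± 0.12, adjusted p = 0.0141). Each of these calls was lost without either day 0 array. The 206114_at call at day 4 held in 8 of 17 alternatives and that at day 8 in 13, and the 228948_at calls held in 12 of 16 at day 4 and at day 8. At day 6 neither passed, with adjusted p of 0.102 and 0.364, and without the 2 arrays that stood apart 206114_at changed by -1.17 at day 6. Probe set 229374_at ranged from 7.21 to 7.79 and was not called, and 238671_at ranged from 5.79 to 6.01, below the array median on each array, and was not tested.

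**Figure D3:**
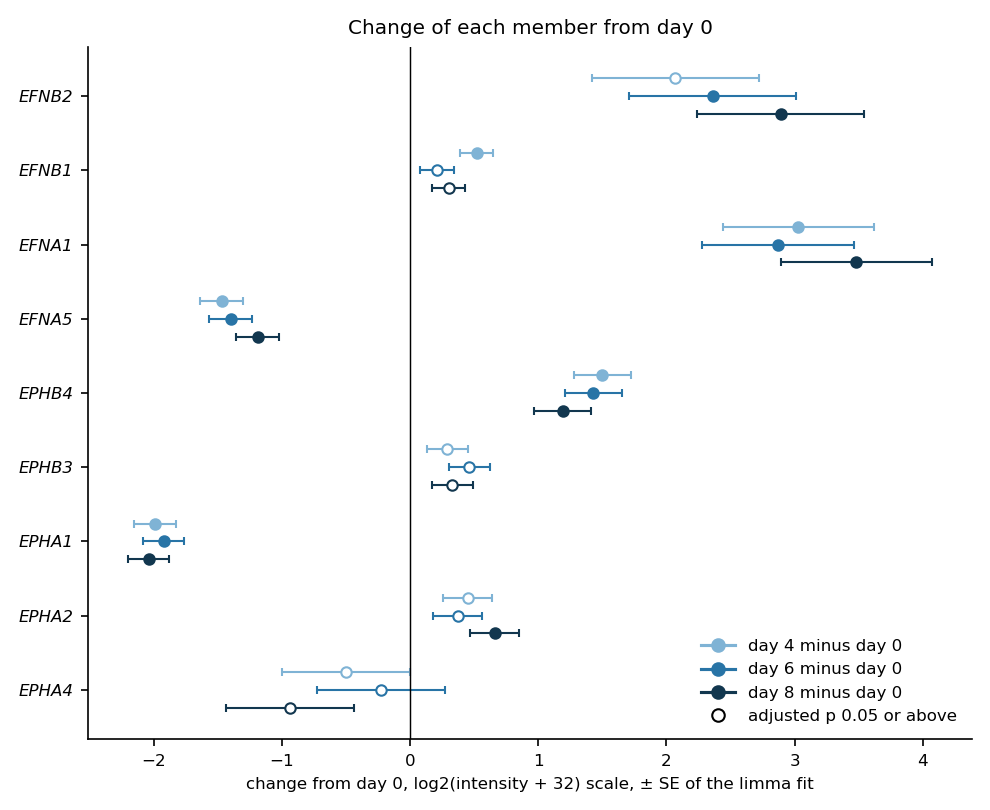
Change of each tested member from day 0 at day 4, day 6 and day 8, on the log2(intensity + 32) scale, with bars of ± 1 SE from the limma fit; filled points have an adjusted p under 0.05. EFNA1 lies farthest to the right, at 3.48 for day 8, and EPHA1 farthest to the left, at -2.04.

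Counted together, 3 of the 9 members tested were called higher and 2 lower at day 4 against day 0 (EFNB1, EFNA1 and EPHB4, against EFNA5 and EPHA1), where 8.52% of all 13647 genes tested were called higher and 9.91% lower. At day 6 the count was 3 higher (EFNB2, EFNA1 and EPHB4) and 2 lower, beside 9.73% and 13.6% of all genes. At day 8 it was 4 higher (EFNB2, EFNA1, EPHB4 and EPHA2) and 2 lower, beside 10.4% and 14.1%. The median size of a member's change, whatever its sign, was 1.47 at day 4, 1.40 at day 6 and 1.19 at day 8, beside 0.32, 0.37 and 0.40 over all genes tested. The median signed change was 0.45, 0.37 and 0.33 over the members and 0.02, -0.03 and -0.03 over all genes. Among probe sets, 15.8% of 24898 tested were called at day 4, 20.1% at day 6 and 21% at day 8. All of these comparisons share the 2 day 0 arrays, and the members were chosen with earlier results of these data known. With replicate 1 of day 4 and of day 6 left out, more members were called at day 4, as were more genes in all. That fit holds 1 array for each of these days and takes the spread from day 0 and day 8. Leaving out either day 0 array lowered the members called on each day, and leaving out replicate 2 of day 8 lowered them at day 8. The genes called in all also fell in each of these fits.

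Between the sorted days no member was called. The adjusted p of the 9 members in limma was at least 0.914 for day 6 against day 4, was 0.955 for each of them for day 8 against day 6, and was at least 0.724 for day 8 against day 4. Over all 13647 genes the percentage called was 0 in each of the 3 comparisons. An unadjusted p under 0.05 was found for 722, 338 and 887 genes, counts that are not corrected for the number of genes tested. Of the members, EFNB1 had one at day 6 against day 4 (-0.31 ± 0.13, unadjusted p = 0.0434), and there were 0 in the other 2 comparisons. The order of the means ran upward for EFNB2, from 12.99 ± 1.19 at day 4 through 13.28 ± 1.17 at day 6 to 13.81 ± 0.17 at day 8 (SD, n = 2 each), and downward for EPHB4, at 11.57 ± 0.37, 11.49 ± 0.05 and 11.26 ± 0.21. Neither order exceeded the spread between the arrays of a day. Without replicate 1 of day 4 and of day 6 the change of EFNB2 from day 4 to day 8 was -0.03, where it was 0.82 with them.

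The arterial ligand and its venous receptor can be compared as changes within each array, here on EFNB2 202668_at and EPHB4 202894_at. EFNB2 minus EPHB4, taken as a change from the mean of day 0, was -0.10 and 0.10 (day 0), -0.01 and 1.16 (day 4), 0.07 and 1.80 (day 6) and 1.73 and 1.67 (day 8). On replicate 1 of day 4 and of day 6 both genes stood above day 0 by about the same amount, and on the other 4 sorted arrays EFNB2 stood further above it. The 2 arrays of day 4 and of day 6 thus differed from each other by more than either day 8 array differed from its partner. This is a description of 8 arrays, with no test.

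The gap between the 2 arrays of a day was concentrated in a few members. Replicate 2 exceeded replicate 1 on EFNB2 202669_s_at by 3.82 at day 4 and 3.60 at day 6, which ranked 11 and 10 among 24898 probe sets by size. Gaps over 3 were found in 30 probe sets at day 4 (0.12%) and 39 at day 6 (0.157%). EFNB2 202668_at had gaps of 1.69 and 1.66, and EFNA1 0.58 and 2.01. EPHA4 227449_at ran the other way, with gaps of -0.94 and -1.43. By contrast EPHB4 202894_at had gaps of 0.52 and -0.07. At day 0 the 21 probe sets had gaps between -0.25 and 0.21, and at day 8 between -1.20 and 0.47, the lowest being EFNA5 233814_at. The gaps of the 2 EFNB2 probe sets differed by 2.13 at day 4 and 1.94 at day 6, and 104 (1.6%) and 123 (1.89%) of 6496 genes with several tested probe sets had a spread at least as wide. The endoderm and stroma marker levels and the ACTB ratios given above moved with these gaps, and their part in them was not tested. For GAPDH the 3′ to 5′ ratio of the same arrays differed less, with 2.22 on replicate 1 and 2.15 on replicate 2 of day 4, and 3.73 on replicate 1 and 3.41 on replicate 2 of day 6.

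**Figure D4:**
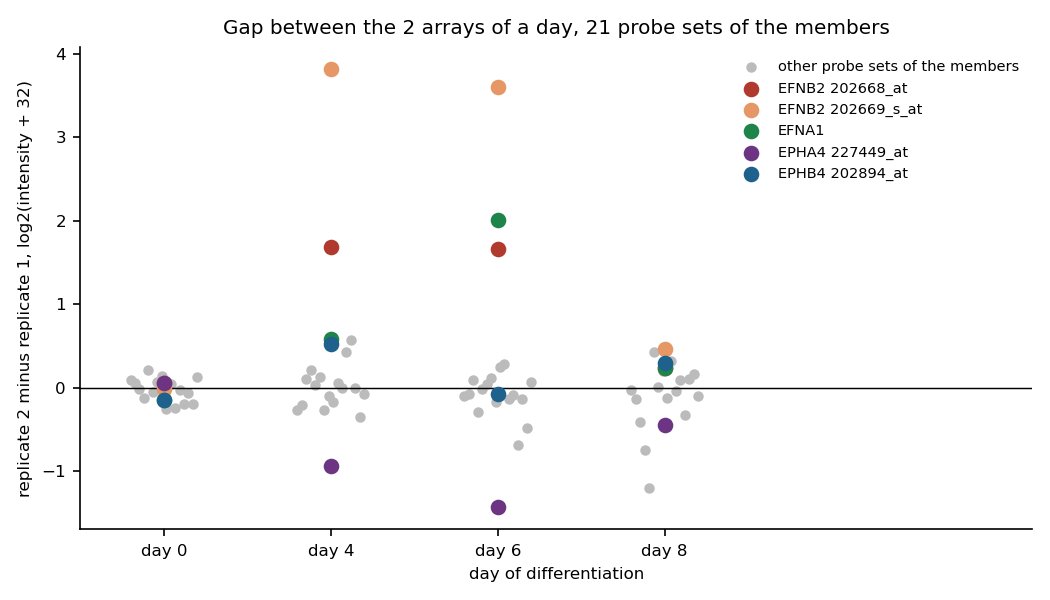
Replicate 2 minus replicate 1 within each day for the 21 probe sets of the members, on the log2(intensity + 32) scale, each point 1 probe set. At day 4 and day 6 the EFNB2 probe set 202669_s_at stands highest, at 3.82 and 3.60, and EPHA4 227449_at lowest, at -0.94 and -1.43, and at day 0 no probe set lies farther from 0 than 0.25.

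The remaining genes of the family were counted beside the share of all genes called. The share called higher was 8.52% (day 4), 9.73% (day 6) and 10.4% (day 8). The share called lower was 9.91% (day 4), 13.6% (day 6) and 14.1% (day 8). Of the 4 other ephrins, 1 rose at day 4 and 2 at day 6 and day 8, with 0 lower. EFNB3, a ligand of nervous tissue, read 8.90 and 8.98 (day 0), 9.70 and 9.66 (day 4), 9.90 and 9.75 (day 6) and 9.89 and 9.94 (day 8), and rose 1.96-fold at day 8 (0.97 ± 0.16, limma adjusted p = 0.00596). EFNA2 rose 1.90-fold at day 6 (adjusted p = 0.0101) and 1.53-fold at day 8 (adjusted p = 0.043). The calls of both were lost without either day 0 array. Of the 8 other Eph receptors, 5 were bright enough to be tested, and EPHA3, EPHA5 and EPHA6 were not. EPHA8 was called lower at day 4 (-0.44 ± 0.11, adjusted p = 0.0413) and day 6 (-0.47 ± 0.11, adjusted p = 0.0279), and at day 8 0 of the 5 were called. The EPHA8 call held in 6 of 17 alternatives at day 4 and in 9 of 17 at day 6, and it was lost without either day 0 array on both days. EPHA7 had changes of -0.90 at day 4 (adjusted p = 0.394), -1.44 at day 6 (adjusted p = 0.155) and -1.10 at day 8 (adjusted p = 0.247), none of them called.

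Downstream, receptor and ligand tails act through adaptors, exchange factors, Src-family kinases and phosphatases. The counts of the following lists stand beside the share of all genes called higher, 8.52% (day 4), 9.73% (day 6) and 10.4% (day 8), and lower, 9.91% (day 4), 13.6% (day 6) and 14.1% (day 8). Of 28 tested genes for adaptors and exchange factors, 9 rose and 3 fell at day 4, 11 rose and 2 fell at day 6, and 11 rose and 3 fell at day 8. Over the alternatives the number higher ran from 5 to 12 at day 4, from 6 to 12 at day 6 and from 6 to 15 at day 8. VAV3, an exchange factor recruited to active Eph receptors, read between 12.37 and 13.04 on the sorted arrays, against 9.08 and 9.02 at day 0. It rose 10.2-fold at day 4, 13.7-fold at day 6 and 11.6-fold at day 8 (3.53 ± 0.18, limma adjusted p = 3.94e-05). TIAM1, which activates Rac, rose 3.50-fold at day 8 (adjusted p = 0.000503), KALRN, an exchange factor that acts below EphB receptors in neurons, 3.49-fold (adjusted p = 0.00114) and TJP1, a scaffold of tight junctions, 2.10-fold (adjusted p = 0.00136). The genes that fell at day 8 were SHB, CHN1 and GRIP1, named after their values were seen. The list's median change at day 8 was 0.42, beside -0.03 over all genes.

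Of 19 tested kinases and phosphatases, 6 rose at day 4, 7 at day 6 and 7 at day 8, and 0, 0 and 1 fell. The number higher ran from 2 to 9 at day 4 and from 3 to 10 at day 6 and at day 8 over the alternatives. PTPRB, the endothelial phosphatase VE-PTP, moved most in this list. Its log2 level was 5.92 and 5.72 (day 0), 10.45 and 11.27 (day 4), 10.86 and 11.97 (day 6) and 11.05 and 11.65 (day 8), a 46.3-fold rise at day 8 (5.53 ± 0.44, limma adjusted p = 0.00027). The Src-family kinases LYN and FYN rose 3.25-fold (adjusted p = 0.000587) and 2.22-fold (adjusted p = 0.0154) at day 8, and CSK, which restrains that family, rose 3.03-fold (adjusted p = 0.00416). FYN lost its day 8 call without any 1 of the day 0 and day 8 arrays. The gene that fell at day 8 was PTPN13, named after its values were seen. The median change of the list at day 8 was 0.44.

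Of 11 tested genes for proteases and turnover, which shed ephrins and receptors or remove them, 1 rose at day 4, 3 at day 6 and 3 at day 8, and 0, 1 and 1 fell. Over the alternatives between 0 and 3 were called higher at day 4, between 0 and 4 at day 6 and between 0 and 6 at day 8. NEDD4, a ubiquitin ligase, rose 1.95-fold at day 8 (0.96 ± 0.19, limma adjusted p = 0.0131), while its relative NEDD4L was 2.35-fold lower (-1.23 ± 0.21, adjusted p = 0.00649). NCSTN, a subunit of gamma-secretase, rose 1.64-fold (adjusted p = 0.0453). MMP9, a gelatinase, read 9.15 and 8.93 (day 0), 8.72 and 10.17 (day 4), 9.19 and 11.07 (day 6) and 11.57 and 12.68 (day 8), and rose 8.49-fold at day 8 (3.09 ± 0.73, adjusted p = 0.0235). MMP9 also had its lower value on replicate 1 at day 4 and day 6. Its day 6 change was 1.09 (adjusted p = 0.341), against 2.03 without those 2 arrays. Each of these day 8 calls was lost without either day 0 array.

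Genes used elsewhere to tell arteries from veins rose on both sides. Of 12 tested arterial genes, 7 rose at day 4, 8 at day 6 and 10 at day 8, with a median change of 2.28, 2.45 and 3.38, and 1 fell at day 6, the Notch ligand JAG1, named after its values were seen (-1.60, limma adjusted p = 0.0332). Of 6 tested venous genes, 5 rose on each day, with a median change of 3.45, 3.35 and 3.54. NR2F2 of the venous list and BMX of the arterial list had no probe set of 1 symbol and were not tested. The median over all genes tested was 0.02, -0.03 and -0.03. SOX17, a transcription factor of arterial endothelium, rose 18.4-fold at day 8 (4.20 ± 0.37, adjusted p = 0.000429), HEY1, a Notch target, 15.4-fold (adjusted p = 0.0011), GJA4, the gap junction protein connexin 37, 23.6-fold (adjusted p = 0.00402) and NRP1, a co-receptor for VEGF, 5.31-fold (adjusted p = 0.00424).

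On the venous side, APLNR, the apelin receptor, rose 45.1-fold at day 8 (5.49 ± 0.19, limma adjusted p = 8.54e-06), EMCN, a sialomucin of veins and capillaries, 39.3-fold (adjusted p = 0.000144), TEK, the angiopoietin receptor TIE2, 14.0-fold (adjusted p = 1.01e-05) and NRP2 8.37-fold (adjusted p = 6.79e-05). EMCN and TEK are also among the endothelial markers above. GJA4 read 11.61 and 13.24 at day 4 and 11.15 and 12.91 at day 6, lower on replicate 1 as EFNB2 was. TEK, at 13.01 and 13.12 at day 4 and 12.93 and 12.99 at day 6, differed little between the same arrays, and SOX17, at 10.50 and 10.34, and 10.68 and 10.51, was slightly higher on replicate 1. Without replicate 1 of day 4 and of day 6, more arterial genes were called higher on each of the 3 days, and the number of venous genes stayed the same. The genes called in all also rose in number on each day in that fit. Over all alternatives the arterial genes called higher numbered 3 to 11 at day 4 and day 6 and 4 to 11 at day 8, and the venous genes 4 to 5 on each day.

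**Figure D5:**
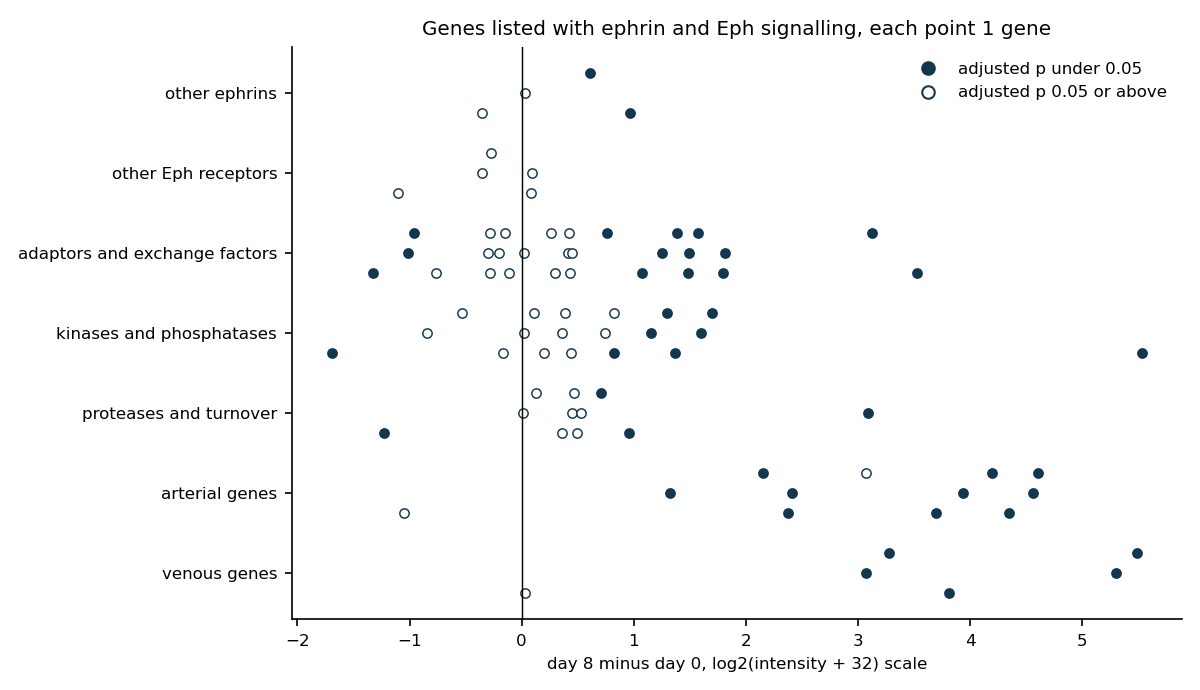
Change at day 8 from day 0, on the log2(intensity + 32) scale, of the tested genes in 7 lists around ephrin and Eph signalling, each point 1 gene and filled where the limma adjusted p is under 0.05. PTPRB, among kinases and phosphatases, lies farthest to the right at 5.53, and the arterial and venous lists have medians of 3.38 and 3.54.

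The genes whose log2 level followed EFNB2 most closely over the 8 arrays, by Pearson's r, were LRCH1, DOCK9 and NHSL2 (0.996 each), PIK3CG (0.995) and A2M (0.994). They shared its low values on replicate 1 of day 4 and of day 6. DOCK9, an exchange factor for Cdc42, read 9.13 and 9.10 (day 0), 10.13 and 11.37 (day 4), 10.30 and 11.60 (day 6) and 11.51 and 11.41 (day 8). A2M, a broad protease inhibitor, read 8.04 and 8.08 (day 0), 9.51 and 11.21 (day 4), 9.81 and 11.87 (day 6) and 11.66 and 11.60 (day 8). For EPHB4 they were RIN2 (0.990), B4GALT1 (0.989), CFAP161 (0.986), TP53INP1 (0.985) and LAMP2 (0.984). RIN2, an exchange factor for Rab5, read 9.99 and 10.09 (day 0), 11.48 and 12.20 (day 4), 11.68 and 11.85 (day 6) and 11.36 and 11.80 (day 8), with no low replicate 1 at day 6. All 10 of these genes were lowest on the 2 day 0 arrays, so each r includes that step, and the arrays are shared by all genes. With the larger of the alternative offsets, 3 of the 5 genes remained among the 5 closest to EFNB2 and 4 of the 5 for EPHB4.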

How the data were processed

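The authors deposited linear intensities, 1 per probe set and array, made with MAS5 per the submitters' processing notes. A version or genome build is not given in the sources used here. Array medians lay between 88.7 and 93.2, and these deposited values were not rescaled. Per the labels' protocols, total RNA was taken with Trizol and labelled as biotinylated cRNA. Groups and replicate numbers come from the sample titles. The source name of 3 samples of day 6 and day 8 says day 4, while title, description and stage name the later day, which was used.

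The deposited intensities were transformed as log2(intensity + 32). Each gene was read by its brightest probe set over the 8 arrays, with _x_at sets as a last resort. Genes brighter than the array median on 2 or more arrays, 13647 of 19775, went into limma 3.58.1 in R 4.3.3, as did 24898 of 41091 probe sets on their own. The fit held all 8 arrays, a term per group and eBayes with trend (4 residual and 2.84 prior degrees of freedom), with Benjamini-Hochberg adjustment, two-sided, called at 0.05. The number of arrays limits the precision, and no detection calls were used. The fit was tested on simulated data. Plots used matplotlib 3.10.9 in Python 3.11.15.

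Named were all members, up to 4 called genes per pathway list by smallest adjusted p at day 8, and the 5 genes closest to EFNB2 and to EPHB4. Members and lists were chosen with earlier results of these data known. Alternatives were a smaller and a larger offset, no filter or one at the 75th percentile, quantile normalization, averaging a gene's probe sets or testing each alone, no trend in eBayes, a fit on only the arrays compared, a replicate block, and each array left out. Fits on the 6 sorted arrays, fits without replicate 1 of day 4 and of day 6, and the alternatives for further probe sets and pathway genes were added after the data were seen.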

Additional observations from a re-analysis of the deposited data

How the results depend on the processing

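Of the comparisons with day 0, 483 recomputed values of the 9 members kept direction and side of the threshold in 431, lost a call in 38 and gained one in 13, and 1 uncalled value changed sign; 0 called values changed sign. Among the sorted days, 31 of 537 values changed sign, none of them called. With only the arrays compared, the members called at day 6 against day 0 numbered 3 in place of 5, and the genes called in all 2717 in place of 3187. The same restriction gave 2 members higher and 2 lower at day 4, in place of 3 and 2. At day 8 it gave 5 higher and 3 lower, in place of 4 and 2, and 6784 genes in all in place of 3345. Without replicate 1 of day 4 and of day 6 more members were called at day 4, as were more genes in all. With each array left out in turn, the members called against day 0 were fewest without replicate 2 of day 0. At day 8 they were as few without replicate 2 of day 8. The genes called in all also fell in these fits. No member was called among the sorted days with any array left out. EFNA5 and EPHA1 kept their calls in all 18 alternatives on each day. With a replicate block the members called were 6, 5 and 6 at day 4, day 6 and day 8, since EFNB2 was then called at day 4 (2.07, adjusted p = 0.0167), and the genes called in all numbered 3039, 3874 and 4250 in place of 2516, 3187 and 3345. The labels do not say that a replicate number marks a shared source. The deviations of same-numbered arrays correlated at -0.02 to 0.02 for day 0 with the other days, so the numbers were not taken as pairs in comparisons with day 0, and at 0.19 to 0.60 among the sorted days, where 2 numbers are too few to settle it. Of 447 values for further probe sets, 404 kept direction and call, 22 lost a call, 12 gained one and 9 uncalled values changed sign, and of 1239 for the named pathway genes 1147 kept both, 77 lost a call, 14 gained one and 1 changed sign. A fit that leaves out an array takes the spread of that day from the other days. The number of arrays, 2 per group, limits the precision.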
